A study of Sus scrofa with 4 samples.

Results

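The hairpins of 10 miRNAs of the imprinted DLK1-DIO3 locus were followed through pig vascular stem cells from fat and from muscle, before and after an adipogenic medium. They are mir-127, mir-136, mir-299, mir-369, mir-376a, mir-376b, mir-376c, mir-381, mir-411 and mir-494, 10 of the 189 miRNAs with a read. They were chosen by name, which here stands for the hairpin, as pig hairpins of this locus, and each had reads in all 4 libraries. The question the series set was how the miRNAs of fat cell formation compare between cells of intramuscular and subcutaneous origin.

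The 4 groups were SVSC MDI, SVSC, IVSC MDI and IVSC, with 1 library each (n = 1). SVSC were cells from subcutaneous fat and IVSC were cells from the longissimus dorsi, the long muscle of the back, both primary pig cultures at passage 1. SVSC MDI and IVSC MDI were the same kinds of culture after the adipogenic mix MDI, made of insulin at 5 mg/l, the glucocorticoid dexamethasone at 0.25 µM and IBMX, which blocks phosphodiesterases, at 0.5 mM. The last 2 agents were removed after 3 days, growth medium came back at day 6, and the cells differentiated for 3 or 4 more days. Neither MDI culture is labelled as having had the shorter or the longer of these. SVSC and IVSC were the undifferentiated cultures, and every medium held 20% serum. All 4 libraries carry the cell type label adipose derived vascular stem cell, although the tissue given for IVSC is muscle. No label gives a strain, an age or whether the cultures shared an animal.

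The libraries held 2573249 miRNA reads in SVSC MDI, 17937121 in SVSC, 14810112 in IVSC MDI and 13252168 in IVSC. Levels are given as CPM, counts scaled per library to its miRNA reads, over the whole hairpin. The limit that a count of 0 allows, 3 reads, is 1.17 CPM in SVSC MDI, 0.167 CPM in SVSC, 0.203 CPM in IVSC MDI and 0.226 CPM in IVSC. SVSC MDI, at 14.3% of the depth of SVSC, is the least precise. All 5 perivascular and mesenchymal marker miRNAs had reads and together took 409082 CPM in SVSC MDI, 262057 in SVSC, 401780 in IVSC MDI and 359421 in IVSC. Nearly all of this was mir-143, with 390300 CPM in SVSC MDI, 255706 in SVSC, 387914 in IVSC MDI and 349986 in IVSC. Of 7 epithelial markers mir-205 alone had reads, between 2 and 9 a library. The whole culture was sequenced, so fewer cells that express the locus and less RNA per cell cannot be told apart.

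The DLK1-DIO3 locus is imprinted: the protein-coding genes DLK1, RTL1 and DIO3 are expressed from the chromosome inherited from the father, and a long run of non-coding RNAs is expressed from the maternal one. The maternal RNAs include MEG3, the RNA antisense to RTL1 that carries mir-127 and mir-136, a group of C/D box snoRNAs and, farther on, a large miRNA cluster. DLK1, also known as preadipocyte factor 1, is a known inhibitor of fat cell differentiation, and in sheep a mutation in this locus causes the muscular hypertrophy called callipyge. In the RefSeq gene order of the pig assembly Sscrofa11.1, MIR127 and MIR136 lie with MIR432 and RTL1 just after DLK1 and MEG3. RefSeq gives 5 of the 10 miRNAs an entry, and those of mir-376a, mir-376c and mir-381 are on unplaced sequence. No RefSeq mature sequence table was at hand, so sequences are not shown.

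The proximal pair, mir-127 and mir-136, differed widely in level. mir-127, which in mouse represses the RTL1 transcript from the paternal chromosome, had 35.8 CPM (92 reads) in SVSC MDI, 53.0 CPM (951 reads) in SVSC, 203 CPM (3011 reads) in IVSC MDI and 771 CPM (10220 reads) in IVSC. mir-136, its neighbour on the same antisense RNA, had 7.38 CPM (19 reads) in SVSC MDI, 2.56 CPM (46 reads) in SVSC, 13.4 CPM (198 reads) in IVSC MDI and 32.4 CPM (430 reads) in IVSC. Both were highest in IVSC, and both muscle libraries lay above both fat libraries. The low ends differed: mir-127 was lowest in SVSC MDI and mir-136 in SVSC.

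The other 8 miRNAs belong to the distal cluster in human and mouse. mir-381 was the most abundant of all 10 in every library, with 199 CPM (511 reads) in SVSC MDI, 268 CPM (4816 reads) in SVSC, 665 CPM (9846 reads) in IVSC MDI and 3051 CPM (40431 reads) in IVSC. mir-411, from the start of the distal cluster and known in human myoblasts to repress the myogenic factor YAF2, had 18.3 CPM (47 reads) in SVSC MDI, 28.9 CPM (518 reads) in SVSC, 89.5 CPM (1325 reads) in IVSC MDI and 437 CPM (5795 reads) in IVSC. mir-299, its close neighbour in human and mouse, had 15.5 CPM (40 reads) in SVSC MDI, 29.6 CPM (531 reads) in SVSC, 52.6 CPM (779 reads) in IVSC MDI and 187 CPM (2480 reads) in IVSC. These 3 had the order of mir-127: lowest in SVSC MDI, then SVSC, IVSC MDI and IVSC.

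The remaining 5 were scarce. mir-494, which in mouse muscle cells represses mitochondrial transcription factor A, had 13.2 CPM (34 reads) in SVSC MDI, 4.74 CPM (85 reads) in SVSC, 26.1 CPM (387 reads) in IVSC MDI and 41.4 CPM (549 reads) in IVSC. mir-369, known in human cells for raising translation of a cytokine mRNA in growth arrest, had 3.50 CPM (9 reads) in SVSC MDI, 2.84 CPM (51 reads) in SVSC, 23.2 CPM (344 reads) in IVSC MDI and 23.7 CPM (314 reads) in IVSC. Its levels in the 2 muscle libraries did not differ beyond counting error, nor did those in the 2 fat libraries. The mir-376 family has closely similar hairpins and is a known target of A-to-I editing in human and mouse brain. Reads could be split among its members by the authors' mapping, so their separate values are uncertain. mir-376a had 2.33 CPM (6 reads) in SVSC MDI, 0.335 CPM (6 reads) in SVSC, 11.7 CPM (173 reads) in IVSC MDI and 4.15 CPM (55 reads) in IVSC. mir-376b had 1.55 CPM (4 reads) in SVSC MDI, 0.613 CPM (11 reads) in SVSC, 7.16 CPM (106 reads) in IVSC MDI and 16.5 CPM (219 reads) in IVSC. For mir-376c the levels were 3.50 CPM (9 reads) in SVSC MDI, 0.669 CPM (12 reads) in SVSC, 9.05 CPM (134 reads) in IVSC MDI and 20.3 CPM (269 reads) in IVSC. Off the mature miRNA and the star strand, mir-376b had 4 reads in SVSC MDI, 11 in SVSC, 106 in IVSC MDI and 219 in IVSC, and mir-376c had 4, 10, 105 and 217 in that order. The counts do not show whether these are the same reads counted on both hairpins, so the 2 may not be separate. All 5 were lowest in SVSC, and mir-376a was the only one of the 10 with its highest level in IVSC MDI by more than counting error.

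**Figure D1:**
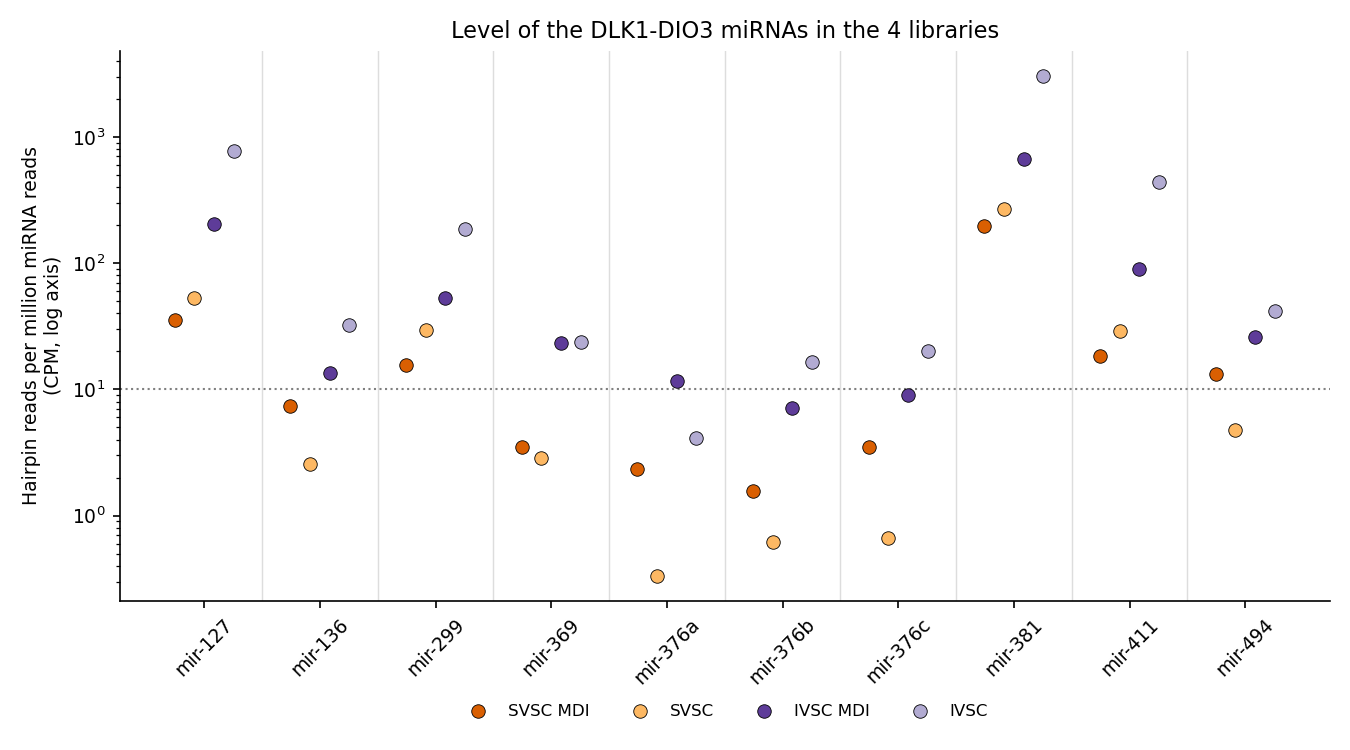
Level of each miRNA (CPM, log axis) in SVSC MDI, SVSC, IVSC MDI and IVSC, 1 point per library, with the dotted line at 10 CPM. For mir-127, mir-299, mir-381 and mir-411 SVSC MDI is the lowest point and IVSC the highest, as for mir-381 with 199 CPM in SVSC MDI and 3051 CPM in IVSC, whereas mir-136, mir-494 and the mir-376 family were lowest in SVSC.

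Summed over the 10, the locus gave 299.6 CPM (771 reads) in SVSC MDI, 392 CPM (7027 reads) in SVSC, 1101 CPM (16303 reads) in IVSC MDI and 4585 CPM (60762 reads) in IVSC. mir-381 made up 66.3% of the locus reads in SVSC MDI, 68.5% in SVSC, 60.4% in IVSC MDI and 66.5% in IVSC, so sums over the locus mostly follow it. The 4 most abundant miRNAs were the same in every library, namely mir-127, mir-299, mir-381 and mir-411. The 6 others took 10.5% of the locus reads in SVSC MDI (exact binomial 95% interval 8.43 to 12.9) and 3.00% in SVSC (2.62 to 3.43). In the muscle cultures they took 8.23% in IVSC MDI (7.81 to 8.66) and 3.02% in IVSC (2.89 to 3.16). Their share was thus higher after induction in each culture, with intervals that do not overlap, and close to equal between the undifferentiated cultures. In CPM the 6 together had 31.5 in SVSC MDI, 11.8 in SVSC, 90.6 in IVSC MDI and 139 in IVSC. This split into 4 and 6 was made after the levels were seen, and it is a description.

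**Figure D2:**
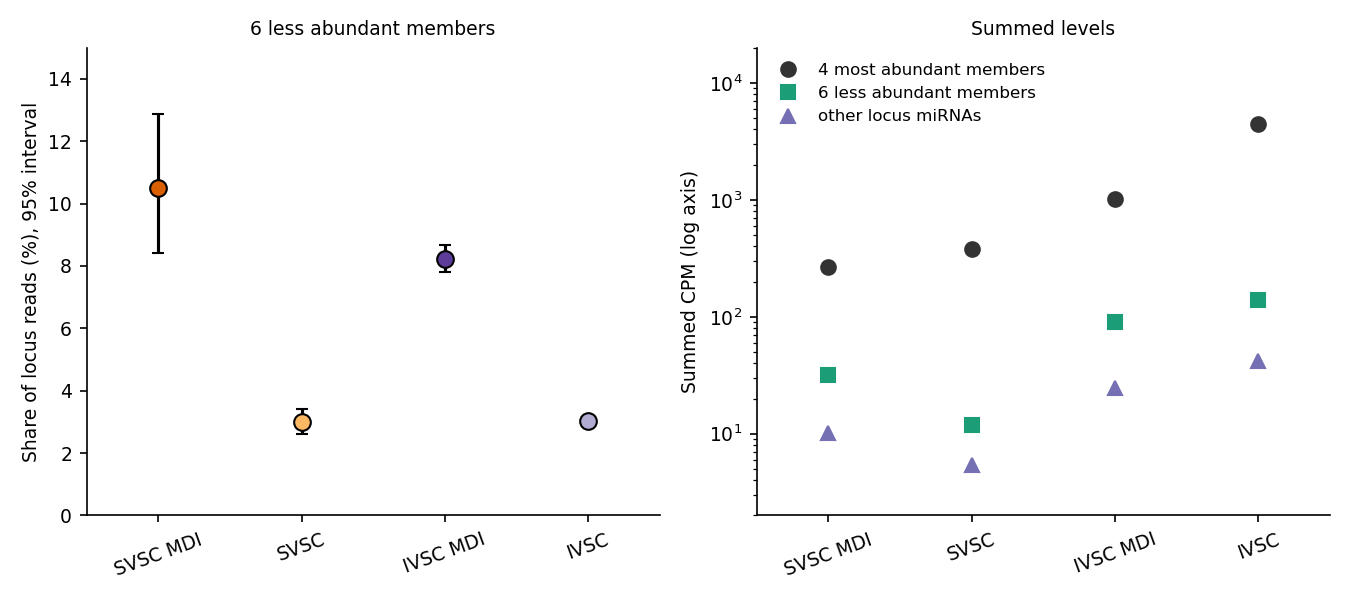
Left, share of the locus reads (%) on the 6 less abundant miRNAs in SVSC MDI, SVSC, IVSC MDI and IVSC, with exact binomial 95% intervals, at 10.5%, 3.00%, 8.23% and 3.02%. Right, summed levels (CPM, log axis) of the 4 most abundant miRNAs, the 6 others and 5 further locus miRNAs in the same libraries.

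The deposited counts divide a hairpin's reads into 3 classes: those of the annotated mature miRNA, those of its star strand and all others. Most locus reads lay outside the annotated mature miRNA and the star strand: 83.8% in SVSC MDI, 86.1% in SVSC, 76.9% in IVSC MDI and 82.4% in IVSC. With the reads of the 4 libraries pooled, 7 of the 10 (70%) were read mainly from there, against 57 of all 189 miRNAs (30.2%). Also pooled, mir-376b and mir-494 had 100% of their reads there, and mir-381 had 99.95%, with 26 of 55604 reads on its annotated mature miRNA. mir-411 had 93.0% there, between 89.7 and 93.7% by library, and mir-299 had 91.3%, between 77.5 and 95.9%. For mir-376c it was 79.2%, between 44.4 and 83.3%, and for mir-136 62.2%, between 44.4 and 70.2%, so these did not have most of their reads there in every library. By contrast mir-127 had 93.9% and mir-369 92.6% of reads on the mature miRNA. mir-376a alone was read mainly from the star strand, which held 90% of its 240 reads. Which arm the reads on the rest of a hairpin come from is not given by these counts.

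Reads that match the annotated mature sequence from end to end were rare for most of the locus. They were 5.83% of the mature reads of mir-127, 5.73% of those of mir-136, 3.90% of those of mir-299 and 0% of those of mir-411. For mir-369 they were 82.3% and for mir-381 88.5%, the second from 26 mature reads. The share on the mature miRNA also moved between libraries for some hairpins. For mir-136 it was 47.4% in SVSC MDI (9 of 19 reads), 32.6% in SVSC, 55.6% in IVSC MDI and 29.8% in IVSC, higher after induction in each culture, though in the fat culture the exact 95% intervals, 24.4 to 71.1% in SVSC MDI and 19.5 to 48.0% in SVSC, overlap widely. For mir-299 it was 22.5% in SVSC MDI (10.8 to 38.5%), 4.14% in SVSC (2.61 to 6.21%), 19.5% in IVSC MDI and 6.05% in IVSC.

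**Figure D3:**
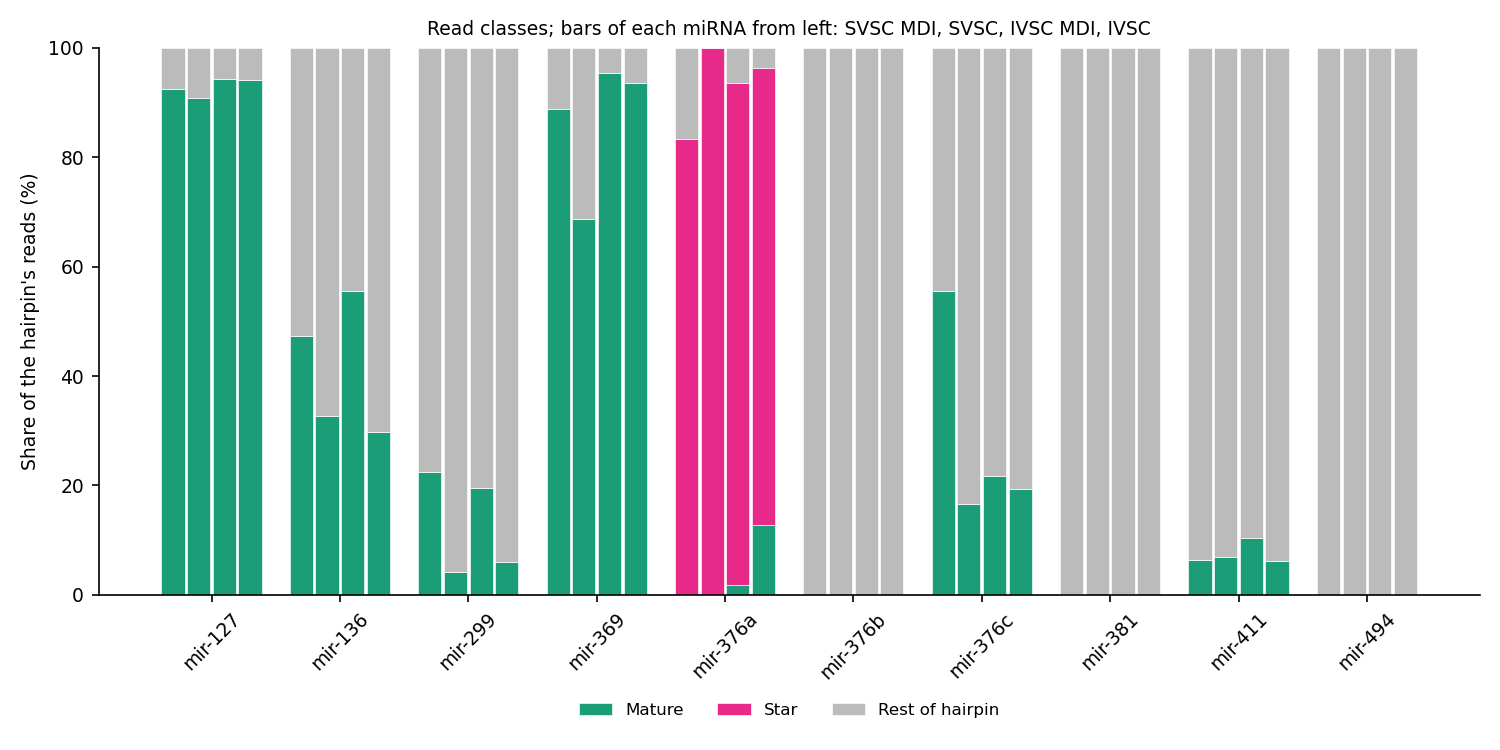
Share of each hairpin's reads (%) in the classes mature miRNA, star strand and rest of hairpin, with bars from left to right for SVSC MDI, SVSC, IVSC MDI and IVSC. mir-127 and mir-369 were read mainly as the annotated mature miRNA, mir-376a as the star strand, and the other 7 mainly from the rest of the hairpin over the 4 libraries.

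Between the undifferentiated cultures the whole locus was lower in the fat-derived cells. A miRNA was compared where either library had at least 10 CPM of it, and called where the ratio was at least 2-fold and its exact 95% counting interval excluded 1. On this rule 9 of the 10 were lower in SVSC than in IVSC, where 20.9% of the 148 miRNAs compared were lower, and none was higher, where 7.43% of the 148 were. The summed level was 392 CPM in SVSC and 4585 CPM in IVSC, 11.7-fold lower in SVSC (11.4 to 12.0). With 1 library a group there is no p-value, and the intervals cover counting error only. The median log2 ratio of the 10 was -3.65, against -0.25 over the 148.

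The ratios of the 9 called miRNAs ran from 6.32-fold to 30.3-fold lower. The proximal mir-127 was 14.5-fold lower in SVSC (13.6 to 15.6) and mir-136 12.7-fold (9.32 to 17.5). In the distal cluster mir-411 was 15.1-fold lower (13.8 to 16.6), mir-381 11.4-fold (11.0 to 11.7), mir-494 8.74-fold (6.95 to 11.1), mir-369 8.33-fold (6.18 to 11.4) and mir-299 6.32-fold (5.75 to 6.96). The largest ratios were those of mir-376c, 30.3-fold lower (17.1 to 59.5), and mir-376b, 26.9-fold (14.8 to 54.8), each from 12 reads or fewer in SVSC. As their reads off the mature miRNA nearly coincide, these may not be 2 separate measurements. Summed as the proximal pair and the 8 distal miRNAs, the ratios were 14.5-fold (13.5 to 15.4) and 11.2-fold lower (11.0 to 11.6). Among the 148, mir-206 and mir-133b had the lowest ratios, and the 9 called locus miRNAs filled places 3 to 11.

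The minimum of 10 CPM was met by 4 of the 10 in SVSC and by 9 in IVSC, so 5 of the calls passed it through IVSC alone. Without the minimum all 10 were lower in SVSC, against 25.0% of 184 miRNAs, and none higher, against 7.07%. mir-376a, the one left out by the minimum, was 12.4-fold lower (5.35 to 35.3) from 6 reads in SVSC and 55 in IVSC. The reads on the mature miRNA, taken apart, were also lower in SVSC for those that had enough of them: 15.1-fold for mir-127, 13.6-fold for mir-411, 11.6-fold for mir-136, 11.4-fold for mir-369 and 9.23-fold for mir-299. The origin difference was thus present in the annotated mature miRNA and not only in the other reads of these hairpins.

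After induction the fat-derived cells again had the lower level. The sum was 299.6 CPM in SVSC MDI and 1101 CPM in IVSC MDI, 3.67-fold lower in SVSC MDI (3.42 to 3.95). Of the 8 compared, 6 were called lower, where 10.2% of 147 miRNAs were, and none was called higher, where 17.7% were. These were mir-369 at 6.64-fold (3.46 to 14.6), mir-127 at 5.69-fold (4.62 to 7.08), mir-376a at 5.01-fold (2.26 to 13.8), mir-411 at 4.90-fold (3.66 to 6.70), mir-299 at 3.38-fold (2.46 to 4.77) and mir-381 at 3.35-fold (3.06 to 3.67). mir-494 had a ratio of 0.506 (0.345 to 0.719) and mir-136 of 0.552 (0.326 to 0.886), both short of 2-fold. Among those called, mir-369 and mir-376a met the minimum of 10 CPM through IVSC MDI alone. mir-376b and mir-376c were below 10 CPM in both libraries. Without the minimum 8 were lower, against 11.4% of 184, and none higher, against 15.8%.

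Both states were then fitted together with edgeR's quasi-likelihood test, with culture and induction as terms over all 179 miRNAs that passed its filter. The fit has 1 residual degree of freedom and takes its spread from all miRNAs, so its p-values say nothing of the spread between animals or preparations. Over both states, 3 of the 10 were lower in SVSC at a Benjamini-Hochberg adjusted p under 0.05, where 2.23% of the 179 were lower and 0.559% higher. mir-127 had a log2 ratio of -3.03 (SE 0.67, edgeR adjusted p = 0.000613), mir-381 of -2.47 (SE 0.59, edgeR adjusted p = 0.00219) and mir-411 of -2.96 (SE 0.72, edgeR adjusted p = 0.00227). The fitted ratio was below 0 for all 10, with a median of -2.76 against 0.04 over the 179. The unadjusted p was under 0.05 for 9 of them, all lower, where 13.4% of the 179 had such a p in either direction. The other was mir-494, at 0.0516. DESeq2 called 6 of the 10, where 4.23% of 189 miRNAs were lower, adding mir-299 (DESeq2 adjusted p = 0.0131), mir-369 (DESeq2 adjusted p = 0.0152) and mir-376b (DESeq2 adjusted p = 0.0369).

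Some muscle and other markers differed with origin as well, not all in the same direction and not all in both states. mir-206, a miRNA of skeletal muscle cells, had 1.55 CPM in SVSC MDI, 2.79 in SVSC, 140 in IVSC MDI and 4874 in IVSC. Of 6 muscle markers 5 had reads, all but mir-208b, and their sum was 888 CPM in SVSC MDI, 1853 in SVSC, 1137 in IVSC MDI and 6275 in IVSC. Without mir-206 the sum of the other 4 was 886 CPM in SVSC MDI, 1850 in SVSC, 997 in IVSC MDI and 1401 in IVSC, with a ratio of 1.32 for SVSC over IVSC (1.30 to 1.34). In SVSC this sum was nearly all mir-1, with 32606 of 33183 reads, and the markers did not move alike. mir-1 had a ratio of 1.46 for SVSC over IVSC (1.44 to 1.49), while mir-133b was 51.4-fold lower in SVSC (34.3 to 80.7) and mir-133a 3.61-fold (3.21 to 4.07). For mir-499 the ratio was 0.721 (0.579 to 0.899), short of 2-fold. After induction the ratio of SVSC MDI over IVSC MDI was 2.32 for mir-133a (2.09 to 2.58), higher in the fat culture. It was 0.991 for mir-133b (0.696 to 1.38), 0.749 for mir-1 (0.712 to 0.788) and 0.789 for mir-499 (0.507 to 1.18). The endothelial marker mir-126 had 52.6 CPM in SVSC and 134 CPM in IVSC, 2.55-fold lower in SVSC (2.35 to 2.76). The 2 of 5 blood markers with reads, mir-142 and mir-451, summed to 7.97 CPM in SVSC and 34.9 CPM in IVSC, 4.37-fold lower in SVSC (3.62 to 5.31). For SVSC MDI over IVSC MDI the ratio was 0.711 for mir-126 (0.601 to 0.837) and 0.674 for the blood markers (0.502 to 0.891), both short of 2-fold. Of 3 neuronal markers 2 had reads and summed to 77.7 CPM in SVSC MDI, 22.2 in SVSC, 27.8 in IVSC MDI and 12.7 in IVSC, and the liver marker mir-122 had 1.94, 24.1, 3.11 and 10.5 CPM in that order. The part of these cell types in the locus levels was not tested.

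**Figure D4:**
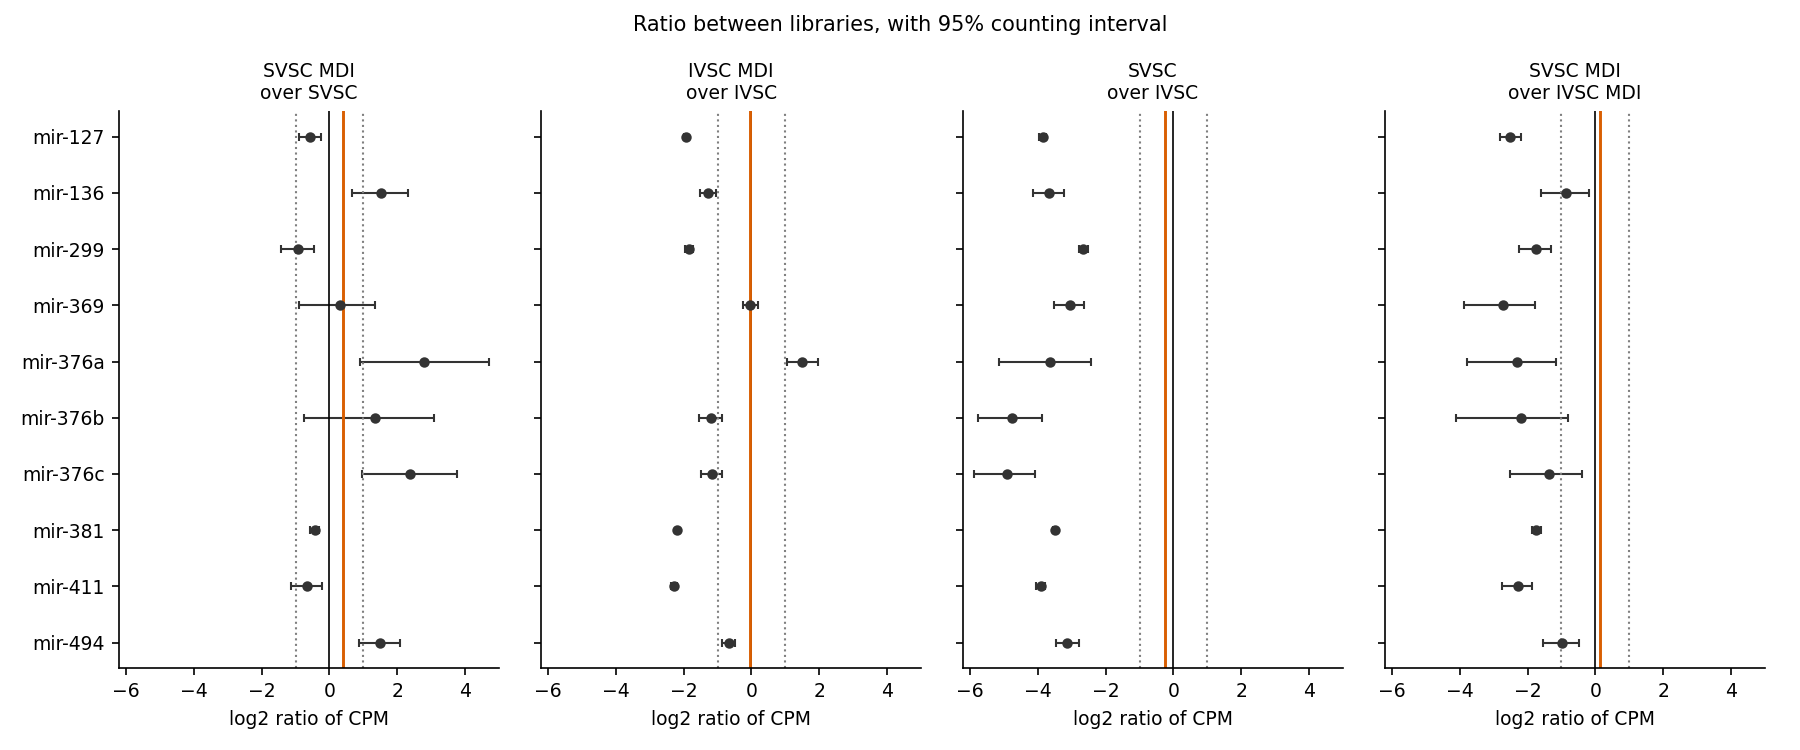
log2 ratio of CPM for each of the 10 miRNAs in SVSC MDI over SVSC, IVSC MDI over IVSC, SVSC over IVSC and SVSC MDI over IVSC MDI, with exact 95% counting intervals, dotted lines at 2-fold and an orange line at the median of all miRNAs compared. All points lie below 0 in both origin comparisons, most lie below 0 in IVSC MDI over IVSC, and they lie on both sides of 0 in SVSC MDI over SVSC.

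Induction of the muscle-derived cells came with a lower locus level. The sum was 1101 CPM in IVSC MDI and 4585 CPM in IVSC, 4.17-fold lower in IVSC MDI (4.09 to 4.24). Of the 10, 7 were called lower, where 23.7% of 152 miRNAs were, and 1 was called higher, where 16.4% were. The median log2 ratio of the 10 was -1.24, against -0.04 over the 152. The 4 abundant miRNAs had the larger ratios: mir-411 was 4.89-fold lower (4.60 to 5.19), mir-381 4.59-fold (4.49 to 4.69), mir-127 3.79-fold (3.64 to 3.95) and mir-299 3.56-fold (3.28 to 3.86). mir-136 was 2.43-fold lower (2.05 to 2.89), mir-376b 2.31-fold (1.82 to 2.94) and mir-376c 2.24-fold (1.82 to 2.78). Among the lower calls mir-376b and mir-376c met the minimum of 10 CPM through IVSC alone. The higher call, mir-376a, met it through IVSC MDI alone. Without the minimum the same numbers were called, 7 lower against 21.5% of 186 miRNAs and 1 higher against 15.6%.

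The last 3 went other ways. mir-376a was 2.81-fold higher in IVSC MDI (2.07 to 3.89), carried by its star strand, with 159 reads in IVSC MDI and 46 in IVSC. mir-369 had a ratio of 0.980 (0.839 to 1.15) and mir-494 of 0.631 (0.552 to 0.720), neither called. In the same pair of libraries mir-206 was at 140 CPM in IVSC MDI and 4874 CPM in IVSC, and the muscle markers without it at 997 CPM in IVSC MDI and 1401 CPM in IVSC. Among the latter mir-133b was 4.18-fold lower in IVSC MDI (3.62 to 4.83). The ratio of IVSC MDI over IVSC was 0.710 for mir-1, 1.09 for mir-133a and 1.04 for mir-499. The part of muscle cells in the lower locus level was not tested.

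Read classes of 1 hairpin did not always move together in the muscle culture. The mature reads of mir-127 were 3.79-fold lower in IVSC MDI (3.63 to 3.95) and its other reads 3.89-fold (3.28 to 4.63). For mir-411 the mature reads were 2.96-fold lower (2.43 to 3.63), and the other reads 5.11-fold (4.80 to 5.45). For mir-299 the mature reads numbered 152 in IVSC MDI and 150 in IVSC, a ratio of 0.907 (0.719 to 1.14), while the other reads were 4.15-fold lower (3.80 to 4.54). For mir-136 the mature reads differed less than the others, with 110 mature reads in IVSC MDI and 128 in IVSC, a ratio of 0.769 (0.591 to 1.00), and other reads 3.84-fold lower (3.02 to 4.92). For mir-299 the lower hairpin total thus lay in the reads outside the annotated mature miRNA. mir-381 had 14 mature reads in IVSC MDI and 11 in IVSC, too few to compare, and its total rests on the rest of the hairpin.

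Induction of the fat-derived cells came with small and mixed differences. The sum was 299.6 CPM in SVSC MDI and 392 CPM in SVSC, a ratio of 0.765 (0.709 to 0.824), short of 2-fold. Of the 5 miRNAs with 10 CPM in at least 1 of these libraries, mir-494 was called higher, where 34.2% of 146 miRNAs were, and none was called lower, where 21.9% were. mir-494 was 2.79-fold higher in SVSC MDI (1.82 to 4.20), from 34 reads in SVSC MDI and 85 in SVSC. It met 10 CPM through SVSC MDI alone. The other 4 had ratios below 1 but short of 2-fold: 0.525 for mir-299 (0.371 to 0.725), 0.632 for mir-411 (0.459 to 0.853), 0.674 for mir-127 (0.538 to 0.836) and 0.740 for mir-381 (0.674 to 0.810). A call among 5 is not above the share over all miRNAs.

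The scaling matters in this pair. Scaled by TMM or by DESeq2 size factors, every log2 ratio of SVSC MDI over SVSC is lower by 0.50 or 0.43, and the calls change. Under TMM mir-494 is no longer called higher, where 24.7% of the 146 miRNAs are, and 3 of the 5 are called lower, where 30.8% are, namely mir-127, mir-299 and mir-411. The miRNAs under 10 CPM had higher levels in SVSC MDI from few reads. Without the minimum 4 were called higher, against 33.9% of 180 miRNAs, and none lower, against 18.9%. The ratios were 2.88 for mir-136 (1.59 to 5.01), 5.23 for mir-376c (1.95 to 13.5) and 6.97 for mir-376a (1.86 to 26.1). mir-376b had a ratio of 2.53 (0.589 to 8.55) and mir-369 of 1.23 (0.532 to 2.52), with intervals that hold 1.

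Set side by side, the log2 ratio after induction was higher in the fat culture than in the muscle culture for all 10, 2 of them within counting error. Over all miRNAs compared the median log2 ratio was also higher in the fat culture, 0.41 for SVSC MDI over SVSC and -0.04 for IVSC MDI over IVSC. For mir-369 the difference was below 0 under the 4 other scalings, between -0.38 and -0.08, and for the other 9 it stayed above 0. For mir-299 it was between 0.20 and 0.50 under them, with a counting SE of 0.24, so it was not beyond counting error under all scalings. For the sum the difference, SVSC minus IVSC, was 1.67 on the log2 scale (95% counting interval 1.56 to 1.78), from -0.39 in SVSC and -2.06 in IVSC. It was 1.76 for mir-381 (1.63 to 1.90), 1.63 for mir-411 (1.19 to 2.07), 1.35 for mir-127 (1.04 to 1.67) and 0.90 for mir-299 (0.42 to 1.38). The interval held 0 for mir-369 (-0.72 to 1.37) and mir-376a (-0.38 to 3.00). For the 6 less abundant miRNAs together the difference was 2.03 (1.65 to 2.42), from 1.42 in SVSC and -0.61 in IVSC. These intervals cover counting error in the 4 libraries, and a change of scaling moves every difference by the same amount, for the sum to between 0.97 and 1.27.

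In the edgeR fit over both cultures none of the 10 was called for induction, where 4.47% of the 179 miRNAs were lower and 6.15% higher. At an unadjusted p under 0.05 there were 4, all lower after induction, where 26.3% of the 179 had such a p in either direction. DESeq2 called the same 4 lower, where 10.6% of 189 miRNAs were. mir-381 had a log2 ratio of -1.49 (SE 0.58, edgeR adjusted p = 0.0761), mir-411 of -1.66 (SE 0.69, edgeR adjusted p = 0.0992), mir-127 of -1.42 (SE 0.63, edgeR adjusted p = 0.129) and mir-299 of -1.56 (SE 0.76, edgeR adjusted p = 0.166). The DESeq2 adjusted p was 0.0351 for mir-381, 0.0223 for mir-411, 0.0429 for mir-127 and 0.0324 for mir-299.

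Few further miRNAs of the locus had reads in the pig hairpin counts. Of 41 others listed for it, 5 did: mir-323, mir-382, mir-432, mir-487b and mir-758. Whether the pig hairpin set holds the rest was not examined, so a missing count need not mean a missing miRNA. The Rfam family mir-154, described below, had 106 CPM in IVSC by uniquely matching reads (1400 reads). Their sum was 10.1 CPM (26 reads) in SVSC MDI, 5.35 CPM (96 reads) in SVSC, 24.4 CPM (361 reads) in IVSC MDI and 41.7 CPM (552 reads) in IVSC. It was 7.78-fold lower in SVSC than in IVSC (6.26 to 9.77), and the ratio of IVSC MDI over IVSC was 0.585 (0.511 to 0.669). mir-382 was the only one of the 5 at 10 CPM in any library, with 2.33 CPM in SVSC MDI, 3.23 in SVSC, 7.70 in IVSC MDI and 18.0 in IVSC. It was called lower in SVSC than in IVSC, 5.55-fold (4.15 to 7.53), and in IVSC MDI than in IVSC, 2.33-fold (1.86 to 2.94). mir-323 had no read in SVSC and 77 in IVSC, at least 27.6-fold lower in SVSC against the limit of 3 reads, with the counting error of the 77 included, though it stayed under 10 CPM.

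mir-345 and mir-342, which lie at the edges of the region, were not uniformly like the rest. mir-345 had 31.9 CPM in SVSC MDI, 29.1 in SVSC, 28.4 in IVSC MDI and 30.0 in IVSC, with a ratio of 0.971 for SVSC over IVSC (0.851 to 1.11). mir-342 had 17.9 CPM in SVSC MDI, 4.35 in SVSC, 21.2 in IVSC MDI and 11.1 in IVSC, and was 4.11-fold higher in SVSC MDI than in SVSC (2.79 to 5.99). Between the undifferentiated cultures mir-342 was 2.55-fold lower in SVSC (1.93 to 3.40). For SVSC MDI over IVSC MDI its ratio was 0.843 (0.605 to 1.15). A pair of miRNAs of other imprinted genes had smaller origin ratios: mir-335, in an intron of MEST, had a ratio of 0.602 for SVSC over IVSC (0.570 to 0.636), and mir-296, from the GNAS region, of 1.55 (1.44 to 1.68). Neither reached 2-fold.

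The C/D box snoRNA family SNORD113, encoded in the same maternal transcripts, is another class of small RNA from the locus. Its entries in the Rfam part of the counts share reads, so their sum counts some reads more than once and its interval is too narrow. Summed, it had 32.3 CPM in SVSC MDI, 3.85 in SVSC, 82.7 in IVSC MDI and 51.4 in IVSC. It was lower in SVSC than in IVSC, 13.4-fold by the sum (10.4 to 17.4), 18.1-fold by the largest entry (10.3 to 34.7) and 14.9-fold by uniquely matching reads (8.77 to 27.2). The largest entry was taken in each library apart, so it need not be the same entry in both, which its interval does not cover. The snoRNAs of all C/D box families together had 936 CPM in SVSC and 824 CPM in IVSC, a ratio of 1.14 (1.11 to 1.16). SNORD113 made up 4.87% of these C/D box reads in SVSC MDI, 0.411% in SVSC, 8.85% in IVSC MDI and 6.23% in IVSC.

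With induction the snoRNA counts gave no single direction in the muscle culture. IVSC MDI over IVSC had a log2 ratio of 0.69 by the sum, 1.07 by the largest entry and -1.67 by uniquely matching reads (58 in IVSC MDI and 165 in IVSC). In the fat culture SVSC MDI over SVSC had 3.07 by the sum, 3.19 by the largest entry and 0.89 by uniquely matching reads (4 in SVSC MDI and 15 in SVSC). The Rfam family mir-154, which takes in several hairpins of this locus, had 49.4 CPM in SVSC MDI, 25.5 in SVSC, 127 in IVSC MDI and 205 in IVSC by the sum. It was 8.04-fold lower in SVSC than in IVSC (7.28 to 8.90). Whether any of those reads are also counted on the pig hairpins was not tested.

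**Figure D5:**
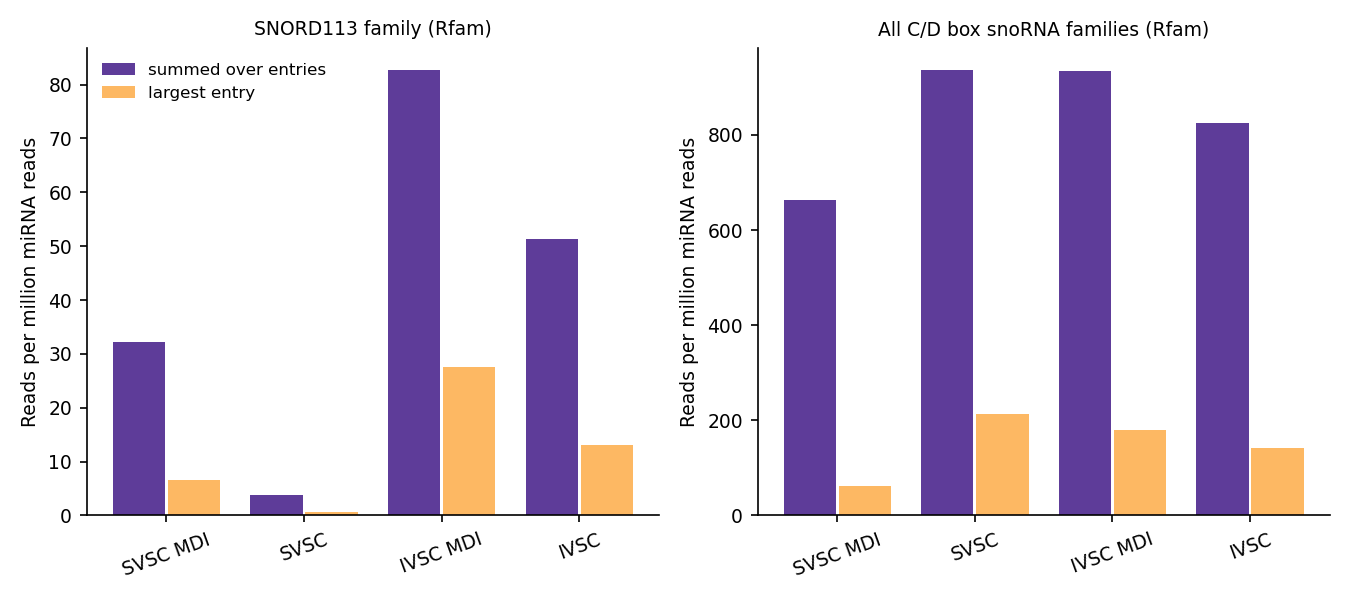
CPM, scaled to miRNA reads, of SNORD113 (left) and of all C/D box snoRNA families (right) in SVSC MDI, SVSC, IVSC MDI and IVSC, as the sum over entries and as the largest entry of each library, which need not be the same entry. SNORD113 was lowest in SVSC, at 3.85 by the sum, while all C/D box families together had 936 in SVSC and 824 in IVSC.

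Outside the locus, the 5 miRNAs closest to the summed locus in their pattern were sought among 144 with 10 CPM in at least 1 library, by Euclidean distance of log2 CPM centred over the 4 libraries. They were mir-19b at a distance of 1.96, mir-126 at 2.13, mir-503 at 2.16, mir-192 at 2.16 and mir-221 at 2.23. mir-19b had 346 CPM in SVSC MDI, 145 in SVSC, 396 in IVSC MDI and 792 in IVSC. mir-221 had 687 CPM in SVSC MDI, 1363 in SVSC, 661 in IVSC MDI and 2955 in IVSC. The abundant locus miRNAs lay nearer, at 0.137 for mir-381, 0.468 for mir-411, 0.498 for mir-127 and 0.653 for mir-299, but each is part of that sum. mir-376a was the farthest of the 10, at 3.39, and mir-206 was at 6.31, place 143 of the 144. With 4 libraries such distances only describe these libraries.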

How the data were processed

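The authors deposited, for each of the 4 libraries, whole read counts per small RNA feature. Per the file headers these divide into exact mature, mature, star, other and total reads. About 10 µg of RNA, fragments of 16 to 35 nt, 12 cycles of PCR and 36 sequencing cycles were used, per the labels' protocols. Aligner, mismatches and trimming: not given in the sources used here. In the submitters' processing notes mm9 is named, its role not stated. The column of uniquely matching mature reads in SVSC held a damaged Rfam value. Besides the hairpins, that column gave the uniquely matching SNORD113 reads, so their SVSC count may be affected. Unnamed features (3 in SVSC, 1 in SVSC MDI) were left out.

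CPM were computed from the counts of each library with its miRNA reads as the total. Ratios carry exact Clopper-Pearson 95% intervals (SciPy 1.17.1, Python 3.11.15), a count of 0 was set to 3 reads, and calls needed 2-fold and 10 CPM. The intervals and the 3-read limit cover counting error only: without molecular identifiers, PCR copies of 1 molecule count as several reads. edgeR 4.0.16 (R 4.3.3) used TMM, filterByExpr and quasi-likelihood tests with culture and induction as terms. DESeq2 1.42.0 was the other tool. On counts simulated with a fixed spread and no induction effect, edgeR recovered 92.75% of 4-fold origin differences among 180 miRNAs. Of its calls there, 2.24% were false on average. That spread was not estimated from these libraries, so neither share need hold for them. The 10 miRNAs and all lists, with every member and every listed locus miRNA with a read to be named, were chosen with earlier results of these data known. Other scalings, read classes, hairpin copies and filters were tried as alternatives.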

Additional observations from a re-analysis of the deposited data

Results flagged for a closer look

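In 5 of the 10 miRNAs the log2 ratio after induction had opposite signs in the 2 cultures, above 0 in the fat culture and below 0 in the muscle culture. The share of all miRNAs with opposite signs is not given here, so the count cannot be read as particular to the locus. The medians over all miRNAs compared also had these signs, 0.41 for SVSC MDI over SVSC and -0.04 for IVSC MDI over IVSC. For mir-369, with 0.30 in SVSC and -0.03 in IVSC, the counting interval of the difference held 0 (-0.72 to 1.37). Under TMM mir-369 was below 0 in both cultures, at -0.21 in SVSC and -0.07 in IVSC. For the other 4 the interval did not hold 0, and the signs stayed opposite under the 4 other scalings. The difference, SVSC minus IVSC, was 3.55 for mir-376c, from 2.39 in SVSC and -1.17 in IVSC. It was 2.80 for mir-136, from 1.53 in SVSC and -1.28 in IVSC. For mir-376b it was 2.55, from 1.34 in SVSC and -1.21 in IVSC, and for mir-494 2.14, from 1.48 in SVSC and -0.66 in IVSC. With 1 library in each group the differences were not tested against any spread between replicates. mir-376b and mir-376c had nearly equal numbers of reads off the mature miRNA in each library and may not be separate cases. SVSC MDI gave 9 reads of mir-376c, 19 of mir-136, 4 of mir-376b and 34 of mir-494. It is the shallowest library, and the part of its depth in these values was not tested.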

How the results depend on the processing

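No paired analysis was possible because each group has 1 library, and leaving one out would leave the edgeR fit no residual degree of freedom. The 9 origin calls between undifferentiated cultures were kept under all 4 other scalings, with copies summed and without the minimum (6 alternatives). Dropping the minimum cannot remove a call. The other scalings raised the SVSC over IVSC log2 ratios by 0.18 to 0.37, too little to bring any of the 9 under 2-fold. The nearest to 0 was mir-299 at -2.66. Keeping these 9 is thus weak support, and on mature reads 5 of them were kept. Under the 6 alternatives 5 of the 7 lower calls in IVSC MDI over IVSC were kept, and 5 of the 6 in SVSC MDI over IVSC MDI. Neither higher call was kept under all 6. For SVSC MDI over SVSC the higher call became 0 under TMM, all deposited reads, mature reads and exactly matching reads, 2 without mir-21 and 4 without the minimum, and the lower calls became 3 under TMM and all deposited reads and 2 under DESeq2 factors and without mir-21. The higher call in IVSC MDI over IVSC became 0 under all deposited reads, where mir-376a had a log2 ratio of 1.71 but was then under 10 CPM, and on mature reads and exact reads. On mature reads lower calls numbered 2 in IVSC MDI over IVSC and 5 in SVSC over IVSC. On exact reads they numbered 1 and 2, and 2 in SVSC MDI over IVSC MDI, which had 10 without mir-21. Beyond the main rule, the share of all miRNAs called is given here only without the minimum and for TMM in SVSC MDI over SVSC. The other counts in this paragraph were not set against such a share, so they do not show whether the locus differs from all miRNAs.

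The summed log2 ratio of SVSC MDI over SVSC was -0.89 under TMM, -0.81 under DESeq2 factors, -0.87 on all deposited reads, -0.79 without mir-21, 0.088 on mature reads and 0.12 on exact reads, the last 2 with intervals that hold 0. That of IVSC MDI over IVSC was -2.10 under TMM, -1.84 on all deposited reads, -1.97 without mir-21, -1.65 on mature reads, -0.66 on exact reads, -1.97 with copies summed and -1.82 without mir-381. For SVSC over IVSC it was -3.20 under TMM, -3.18 under DESeq2 factors, -3.36 on all deposited reads, -3.22 without mir-21, -4.10 on mature reads, -2.95 on exact reads, -3.47 with copies summed and -3.64 without mir-381. For SVSC MDI over IVSC MDI it was -2.00 under TMM, -2.40 on all deposited reads, -2.03 without mir-21, -2.36 on mature reads, -2.17 on exact reads and -2.11 without mir-381. The difference of the summed induction response was 1.21 under TMM, 1.27 under DESeq2 factors, 0.97 on all deposited reads and 1.19 without mir-21; these scalings and the sums without mir-381 were added after seeing the data. DESeq2 called 4 of the 10 for induction and 6 for origin. On mature reads edgeR called 1 of the 7 tested lower for induction, where 13 of 158 miRNAs were lower.

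Called single values that changed sign numbered 5, each on few reads: in IVSC MDI over IVSC, mir-299 was 1.51 (9 and 3 exact reads), mir-376c 0.80 (11 and 6 exact reads), mir-381 0.26 (14 and 11 mature reads) and mir-376a -1.31 (3 and 7 mature reads), and in SVSC MDI over IVSC MDI mir-299 was 0.63 (0 and 9 exact reads). Uncalled values changed sign in 11 further cases: 9 of mir-369, mir-299 in SVSC MDI over SVSC (1.82 on 9 and 22 mature reads) and mir-376c in SVSC MDI over IVSC MDI (0.015 on 5 and 29 mature reads). Apart from the 5, 211 single values stayed within counting error and 72 moved further. The 211 include the values without the CPM minimum, a setting that cannot change a ratio. The cause of the moves was not tested. Depth is least in SVSC MDI, where 3 reads are 1.17 CPM, against 0.167 CPM in SVSC.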
